A study of Homo sapiens with 8 samples.

Results

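The regions described here are the broadest accessible domains of control mitotic cells. The ATAC-seq peaks of 8 libraries on chromosomes 1 to 22 were merged wherever they overlapped by at least 1 bp, which gave 583075 regions. A region was kept where each of the 4 DMSO lists held at least 1 peak of 3000 bp or more, and 114 regions met this rule. Because the rule uses the width in the DMSO lists, those widths are a description, and a smaller width in the other group is favoured by the choice itself. How far the choice goes was measured on lists that took no part in it.

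All 8 libraries came from hTERT RPE-1 cells, an established human epithelial line immortalised with telomerase, with the genotype Plk1-/- EGFP-Plk1as. Endogenous Plk1 was absent in both groups, and an EGFP-tagged analog-sensitive Plk1 (Plk1as) stood in for it. Cells had been held in prometaphase with 5 µM STLC, an inhibitor of the kinesin Eg5, for 16 h, and mitotic cells were shaken off. While still in STLC, 4 samples received 0.5% DMSO and 4 received 10 µM 3MB-PP1, a bulky ATP analog that inhibits Plk1as, for 2 h, and more than 95% of the cells were in mitosis at collection. Each transposition used 50000 cells. The series text calls the 4 samples of a group biological replicates and does not say whether they came from separate cultures, so a p-value measures the spread between these samples only. The comparison asks whether the activity of Plk1 bears on the accessibility of mitotic chromosomes.

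In ATAC-seq the transposase Tn5 inserts adapters where DNA is not covered by nucleosomes or other proteins, and a peak is a stretch with more insertions than the surrounding DNA. Chromatin compacts in mitosis and many transcription factors leave it, yet promoters, above all those in CpG islands, are known to remain accessible. Plk1 is a kinase of centrosome maturation, spindle assembly and chromosome segregation, and in an analog-sensitive kinase an enlarged ATP pocket admits an inhibitor that the unmodified enzyme does not bind well.

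The domains lay mostly at promoters rich in CpG. The 250 bases before the annotated start are printed for 6 domains that hold exactly 1 protein-coding start, namely the 3 with the lowest and the 3 with the highest ratio of mean width in 3MB-PP1 to mean width in DMSO. They are examples from both ends of that order, and the larger sets are given after them. Sequences are from RefSeq (GRCh38.p14), 5′ to 3′ on the strand of the gene, with each CG dinucleotide in capitals.
TGFB2 (chr1:218345086-218345335, + strand): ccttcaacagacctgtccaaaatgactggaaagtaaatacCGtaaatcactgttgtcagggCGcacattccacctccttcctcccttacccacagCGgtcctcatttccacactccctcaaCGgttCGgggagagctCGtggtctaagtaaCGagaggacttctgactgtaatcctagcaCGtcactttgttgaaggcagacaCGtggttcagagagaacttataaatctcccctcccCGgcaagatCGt
ITGA5 (chr12:54419267-54419516, - strand): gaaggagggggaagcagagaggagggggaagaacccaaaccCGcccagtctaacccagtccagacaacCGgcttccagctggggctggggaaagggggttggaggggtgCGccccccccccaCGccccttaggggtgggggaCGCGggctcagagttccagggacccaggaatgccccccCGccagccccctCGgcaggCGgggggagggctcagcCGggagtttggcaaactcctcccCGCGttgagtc
ARID5B (chr10:61901449-61901698, + strand): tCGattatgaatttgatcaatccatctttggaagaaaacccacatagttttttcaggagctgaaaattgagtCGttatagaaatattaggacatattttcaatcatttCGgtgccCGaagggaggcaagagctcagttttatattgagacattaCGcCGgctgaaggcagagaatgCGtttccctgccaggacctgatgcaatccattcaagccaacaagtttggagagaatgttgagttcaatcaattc
PDLIM7 (chr5:177497605-177497854, - strand): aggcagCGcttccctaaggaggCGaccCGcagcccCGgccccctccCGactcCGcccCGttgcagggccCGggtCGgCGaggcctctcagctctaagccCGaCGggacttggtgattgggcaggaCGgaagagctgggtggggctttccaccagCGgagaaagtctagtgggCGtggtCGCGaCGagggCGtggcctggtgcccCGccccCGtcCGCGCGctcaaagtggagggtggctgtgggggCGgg
TENM4 (chr11:79441031-79441280, - strand): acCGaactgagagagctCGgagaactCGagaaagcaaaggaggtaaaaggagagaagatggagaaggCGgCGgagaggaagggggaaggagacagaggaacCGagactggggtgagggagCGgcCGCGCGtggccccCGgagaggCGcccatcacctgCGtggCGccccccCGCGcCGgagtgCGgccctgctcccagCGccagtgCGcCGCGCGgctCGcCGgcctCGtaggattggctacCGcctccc
KMT2A (chr11:118436242-118436491, + strand): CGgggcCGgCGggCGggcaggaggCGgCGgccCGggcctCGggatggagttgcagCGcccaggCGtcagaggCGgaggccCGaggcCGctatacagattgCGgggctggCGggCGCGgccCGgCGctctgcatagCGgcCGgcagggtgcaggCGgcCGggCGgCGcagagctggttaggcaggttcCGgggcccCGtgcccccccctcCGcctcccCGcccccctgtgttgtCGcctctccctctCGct

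The first 3, from domains with ratios of 0.372, 0.427 and 0.432, hold 11, 12 and 7 CG dinucleotides. The last 3, from domains with ratios of 1.01, 1.01 and 1.04, hold 25, 27 and 31. For TENM4 the domain reaches only a little way upstream of the start, so most of the printed bases lie outside it. No DMSO peak of this domain covered the start, and the peaks of 3MB-PP1 replicates 1 and 3 reached 50 and 6 bp upstream of it. The larger sets are given for comparison, without a test. In windows of 300 bases around the start, 47 promoters of domains that were narrower in every 3MB-PP1 list had a median of 30 CG dinucleotides, as did 27 promoters of domains that kept 3000 bp in all 4 lists (medians of 30 each). The ratio of observed to expected CG was 0.6 or more in 80.9% of the former and 92.6% of the latter. Its median was 0.863 in the former and 0.826 in the latter, and their median GC contents were 66.7% and 69.3%. The contrast in CG number between the 6 printed promoters was thus not seen in the medians of these sets.

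Across the 142 protein-coding starts inside domains, the median GC content was 68.8%, against 62.7% over all 21156 protein-coding promoters of the same length. The ratio of observed to expected CG reached 0.6 or more in 85.9% of them and in 62.6% of all promoters. A GC box (GGGCGG on either strand) was present in 78.2% of the promoters in domains and in 56.6% of all promoters. A CCAAT box (CCAAT) was present in 21.8% against 34.4%, and a TATA box (TATAAA) in 8.45% against 9.51%. The AP-1 motif TGANTCA was present in 4.93% against 6.08%, and the TEAD motif CATTCC in 12.7% against 12.2%. The cAMP response element TGACGTCA was present in 1.41% against 2.31%, and the E box CACGTG in 8.45% against 8.25%. These motifs were searched on both strands of the 300 bases, none of them contains another, and a match describes letters only. The 142 starts came from 75 domains, some with several starts of 1 gene. All promoters here means annotated ones, whether or not they lay in a peak. Promoters in narrower accessible regions were not examined, so whether these shares are particular to the domains was not tested.

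A protein-coding start lay in 75 of the 114 domains (65.8%). The share was 17.05% among the 54666 regions called in all 4 DMSO lists, and 60.9% among the 1338 regions whose smallest DMSO width was 2000 to under 3000 bp, so the high share goes with width in general. A further 27 domains lay within a protein-coding gene without holding its start, 6 held the start of a non-coding gene only, 4 lay within a non-coding gene, and 2 overlapped no gene (chr3:157530572-157534958 and chr22:11053297-11057616). In all, 134 protein-coding genes were overlapped, and 136 of 19126 protein-coding genes (0.711%) had a domain within their body or 1 kb of it. The merged regions were 3052 to 5348 bp long, with a median of 3726 bp. Chromosome 19 held 8 domains (7.02%, against 2.98% of the regions called in all 4 DMSO lists), and chromosome 10 held 10 (8.77% against 8.13%).

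The gene lists examined are set beside the 0.711% of all protein-coding genes with a domain, a share at which most lists of this size would hold none, so a count of 0 says little. Of 30 AP-1 and immediate early genes, 3 (10.0%) had a domain within 1 kb: DUSP5, a phosphatase of ERK kinases, ZFP36L1, which promotes decay of AU-rich mRNAs, and FOSL1, an AP-1 subunit whose neighbour FIBP holds the domain. Of 21 YAP and TEAD target genes, 2 (9.52%) had one, CRIM1 and TGFB2. The developmental transcription factors SOX4 and SIX5 were 2 of 66 (3.03%). The histone genes H2AC20, H2AC21 and H2BC21, 3 of 56 (5.36%), shared 1 domain at chr1:149885411-149888897. None of the 39 HOX genes, 73 ribosomal protein genes, 25 mitotic kinase and spindle checkpoint genes, 21 cohesin, condensin and CTCF genes, 20 p53 targets or 18 heat shock genes had a domain. The lists with a domain lay above 0.711%, on 2 or 3 genes each, the histone genes through 1 shared domain. With 0 to 3 genes per list, whether any list differs from that share was not tested. Among cell type markers, 0 of 15 genes of retinal pigment epithelium, 0 of 12 epithelial, 0 of 10 neuronal, 0 of 11 blood and 0 of 12 liver genes had one, and 1 of 23 mesenchymal genes did, CDH2 (N-cadherin). A list of broad domains is a poor test of cell identity, and the marker levels themselves were not measured.

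The width in each library is given next for the domains of these lists. At DUSP5 (chr10:110496057-110499964) the longest peak was 3900, 3551, 3667 and 3650 bp in DMSO replicates 1 to 4 and 3027, 2402, 2435 and 3161 bp in 3MB-PP1 replicates 1 to 4. At SOX4 (chr6:21593409-21597053) it was 3601, 3536, 3492 and 3492 bp and then 2643, 2717, 3469 and 2709 bp. At CRIM1 (chr2:36354684-36358137) it was 3345, 3441, 3454 and 3212 bp and then 2913, 2238, 3170 and 2997 bp. In all 3 domains every 3MB-PP1 list was narrower than every DMSO list, at SOX4 only just so for 3MB-PP1 replicate 3. At ZFP36L1 the 4 widths in DMSO, 3534, 3574, 3653 and 3488 bp, were likewise above those in 3MB-PP1, 3415, 2087, 3348 and 1828 bp. When peaks of a list were joined across gaps of up to 542 bp, a distance explained further on, SOX4, CRIM1 and ZFP36L1 remained narrower in all 4 lists, while DUSP5 overlapped through 3MB-PP1 replicate 1 (3663 bp, against 3551 bp in the narrowest DMSO list). At the histone domain the DMSO lists had 3253, 3077, 3191 and 3452 bp and the 3MB-PP1 lists 1692, 3160, 1687 and 2910 bp, with overlap through 3MB-PP1 replicate 2. CDH2 stood apart from these, with 3224, 3289, 3101 and 3037 bp in DMSO and 3051, 3065, 3120 and 3217 bp in 3MB-PP1, and the groups overlapped.

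All 114 domains had a peak in all 8 lists, so none of them disappeared after 3MB-PP1. The median longest peak was 3505.5, 3478.5, 3462 and 3390 bp in the DMSO lists, which chose the domains, and 3038, 2834.5, 3171.5 and 2974 bp in the 3MB-PP1 lists. A peak of at least 3000 bp was present at 59, 48, 69 and 50 of the 114 domains in 3MB-PP1 replicates 1 to 4. Even so, the longest 3MB-PP1 peak at a domain sat at a median percentile of 99.93 to 99.96 of the widths in its own list. Most domains were therefore still among the widest peaks of the inhibited cells. In a bulk library, fewer cells with an open region and a less open region in every cell cannot be told apart.

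Per domain, the mean 3MB-PP1 width was a median of 0.824 of the mean DMSO width, with a range from 0.354 to 1.04. It was below 1 at 106 domains, below 0.5 at 11, and 0.95 or more at 25. The median over the 36170 regions called in all 8 lists was 0.815, so the domains did not stand out from accessible regions in general by this ratio. The 3MB-PP1 widths were all below the DMSO widths at 40 of 114 domains (35.1%), and all above them at 0. Among regions called in all 4 DMSO lists the shares were 14.1% and 0.229%, and among those called in all 8 lists 11.5% were narrower. With the smallest DMSO width between 1000 and 3000 bp, the share was 20.6%, 22.3%, 24.5% and 24.5% in steps of 500 bp. The 35.1% is above the share in regions of smaller DMSO width, but the domains were chosen on the same DMSO widths and nothing is read from the difference here.

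**Figure D1:**
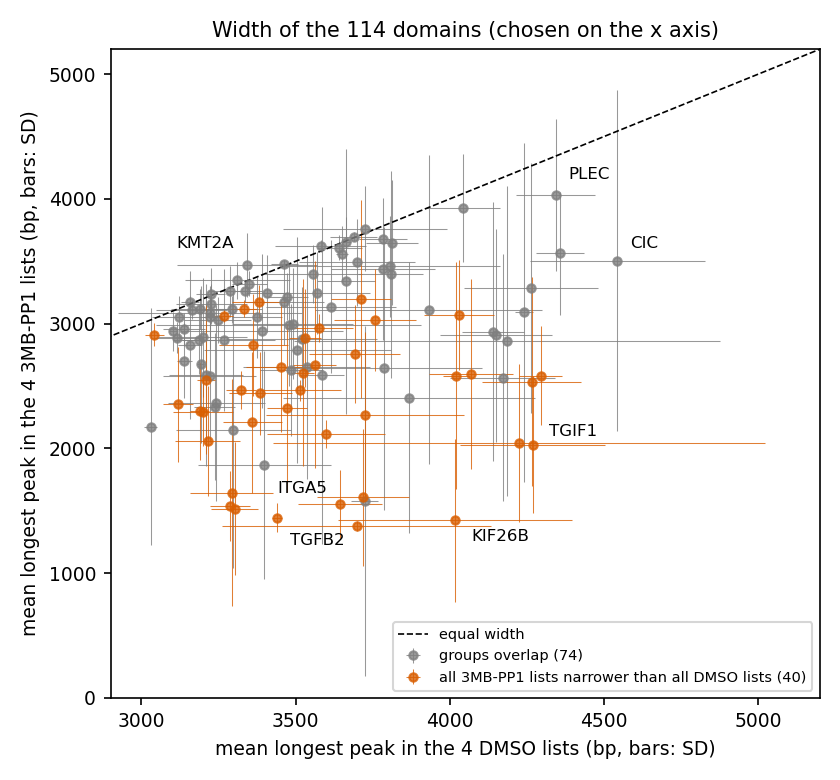
Mean longest peak of each of the 114 domains in the 4 DMSO lists (x axis, bp) and the 4 3MB-PP1 lists (y axis, bp), with bars for the SD over 4 libraries and a dashed line of equal width. Orange points are the 40 domains where every 3MB-PP1 list was narrower than every DMSO list, and most other points lie on or below the line, with KMT2A just above it and KIF26B farthest below.

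The 10 widest domains, are given in 3 groups. CIC, a transcriptional repressor (chr19:42279900-42284855), had 4497, 4334, 4956 and 4386 bp in DMSO and 4399, 2281, 4942 and 2401 bp in 3MB-PP1. UBTF, an architectural factor of RNA polymerase I (chr17:44218127-44222693), had 4415, 4366, 4403 and 4245 bp and then 3457, 3252, 3262 and 4292 bp. PLEC, which encodes the cytolinker plectin (chr8:143939625-143944262), had 4407, 4201, 4280 and 4485 bp and then 4391, 3811, 4638 and 3275 bp. At these 3 domains the groups overlapped, and single 3MB-PP1 lists kept the whole width. CIC, for example, was as wide as in DMSO in 3MB-PP1 replicates 1 and 3 and had broken into 2 peaks in replicates 2 and 4.

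TGIF1, BRD2, HIPK2 and PTMA were narrower in all 4 lists. TGIF1 (chr18:3447863-3452499) encodes a homeodomain corepressor of SMAD-dependent transcription, and its widths were 4596, 4156, 4270 and 4055 bp against 2846, 1728, 1867 and 1677 bp. BRD2 (chr6:32968211-32972637) encodes a bromodomain protein that binds acetylated histones, and its widths were 4312, 4196, 4360 and 4309 bp against 2843, 2031, 2901 and 2560 bp. HIPK2, a nuclear kinase (chr7:139774292-139778820, also over TBXAS1), had 4503, 4206, 4197 and 4156 bp against 3503, 1934, 2963 and 1741 bp. PTMA, which encodes prothymosin alpha, had 4050, 4040, 3958 and 4039 bp against 2468, 3551, 1387 and 2930 bp. None of the 4 pairs of ranges overlapped as deposited. After joining at 542 bp HIPK2 and PTMA remained separate. TGIF1 then overlapped through 3MB-PP1 replicate 3 (4509 bp, against a DMSO minimum of 4055 bp), and BRD2 through replicates 1 and 3 (4202 and 4427 bp, against 4196 bp).

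The remaining 3 of the 10 widest overlapped between groups. SIN3A, the scaffold of a histone deacetylase complex (chr15:75450465-75454807), had 4343, 4291, 4060 and 3996 bp in DMSO and 2152, 4031, 2249 and 1837 bp in 3MB-PP1. LOXL1, a lysyl oxidase of elastic fibres (chr15:73924083-73928471), had 4048, 4261, 4184 and 4069 bp and then 2911, 1990, 4389 and 2452 bp. ROCK1P1 (chr18:106778-111125) had 4270, 4234, 4204 and 4254 bp and then 1865, 4277, 1967 and 4252 bp. In each of these domains at least 1 3MB-PP1 list kept a width within the DMSO range or above it. ROCK1P1 is a pseudogene copy of part of ROCK1, and how reads from near-identical copies were handled is not given in the sources used here, so its widths are uncertain. Of the 10, counting only peaks with a -log10 q of at least 5 lowered the ratio by over 1.5 times at UBTF (0.818 to 0.370), PLEC (0.928 to 0.520) and CIC (0.772 to 0.514). It did so also at HIPK2 and LOXL1, where no 3MB-PP1 peak passed. A list without a passing peak entered as width 0 in either group, so these ratios mix lost peaks with width. DMSO replicates 2 and 4 had no passing peak at UBTF and HIPK2, nor DMSO replicate 4 at LOXL1.

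The smallest ratios came from domains that fell into several pieces. TGFB2 encodes a ligand of the TGF-beta family, and its domain (chr1:218344916-218348916) was 1 peak of 3049, 3828, 3971 and 3944 bp in DMSO replicates 1 to 4. In 3MB-PP1 it was 3, 2, 2 and 3 peaks, the longest of 1394, 1422, 1343 and 1339 bp (mean 1374 ± 40.4, SD, n = 4, against 3698 ± 437). The promoter printed above stayed within the first piece in all 4 lists, and all 4 lists had no peak over a shared stretch of 373 bp from 1002 to 1374 bp downstream of the start. ITGA5, the alpha subunit of the fibronectin receptor (chr12:54417987-54422057), was 1 peak of 3535, 3771, 3749 and 3518 bp in DMSO. It was 2 peaks in every 3MB-PP1 list, the longest of 1703, 1299, 1865 and 1354 bp. The 4 lists shared a gap of 371 bp from -1284 to -914 bp relative to the start, on its upstream side. In 3MB-PP1 replicate 4 the gap was longer and also lay over the start and the promoter printed above. With a -log10 q of at least 5 the ratio at ITGA5 was 0.235 in place of 0.427.

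ARID5B, a DNA-binding protein of the ARID family (chr10:61900069-61904049), had 3663, 3640, 3942 and 3628 bp in DMSO and 1316, 1367, 1317 and 2432 bp in 3MB-PP1. Its shared gap of 456 bp lay from -920 to -465 bp relative to the start whose upstream sequence is printed. KIF26B, a member of the kinesin superfamily (chr1:245152887-245157300), had 3971, 3517, 4414 and 4165 bp and then 745, 1488, 2287 and 1172 bp, and its gaps shared no base between all 4 lists. The domain over FIBP and CCDC85B (chr11:65887984-65891582) had 3418, 3445, 3441 and 3458 bp and then 1334, 1450, 1600 and 1399 bp. In these 3 domains, as at TGFB2 and ITGA5, the widest 3MB-PP1 value was below the narrowest DMSO value as deposited. After joining at 542 bp this remained so at ITGA5 and KIF26B. The groups then overlapped at TGFB2 (3123 bp in 3MB-PP1 replicate 2, against a DMSO minimum of 3049 bp), at ARID5B (3975 bp in replicate 1, against 3628 bp) and at FIBP (3577 bp in replicate 3, against 3418 bp), where the ratio went from 0.420 to 0.564. ARHGAP23 (chr17:38451043-38454843), a GTPase-activating protein, was one of the 5 lowest ratios but overlapped, with 3742, 3670, 3774 and 3709 bp in DMSO and 978, 979, 3677 and 678 bp in 3MB-PP1.

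**Figure D2:**
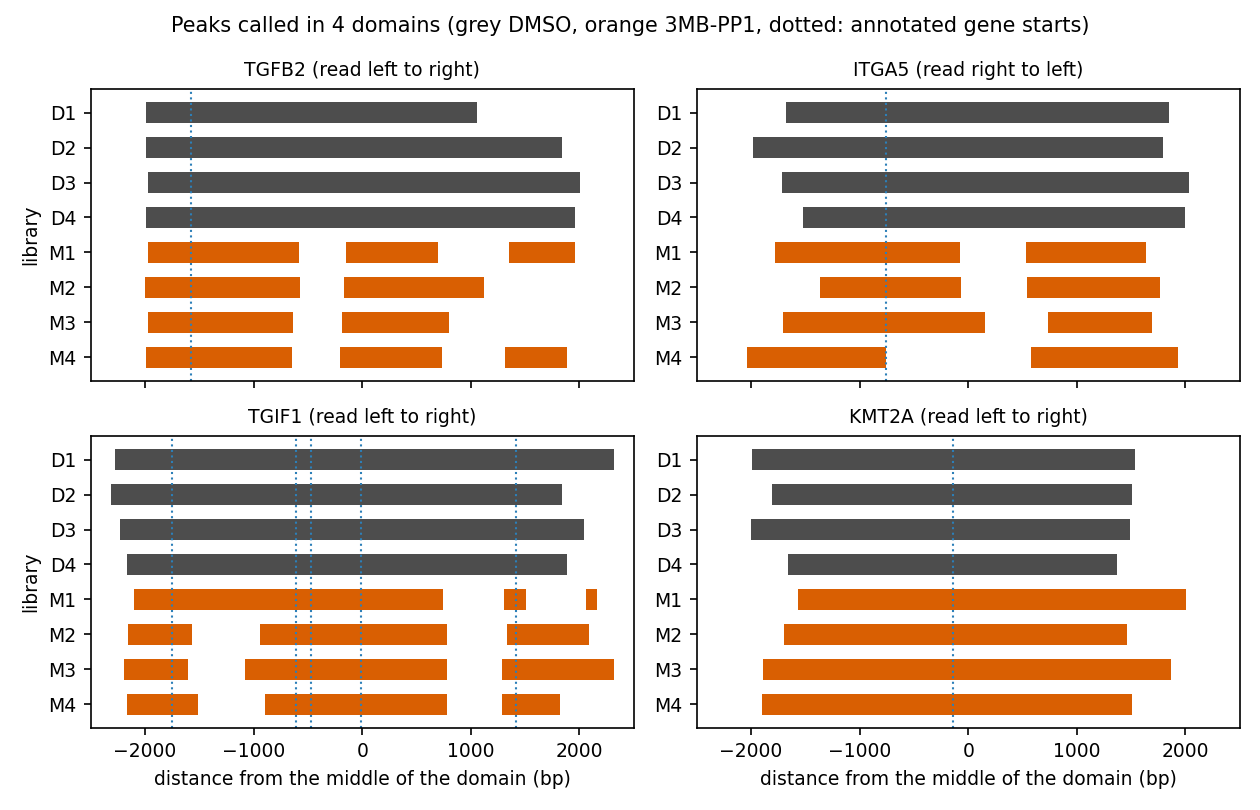
Peaks called in each library over the TGFB2, ITGA5, TGIF1 and KMT2A domains, as bars against the distance from the middle of the domain (bp), grey for DMSO (D1 to D4) and orange for 3MB-PP1 (M1 to M4), with annotated protein-coding starts dotted. The 4 DMSO libraries have 1 peak each, while the 3MB-PP1 libraries have 2 or 3 peaks over TGFB2, ITGA5 and TGIF1 and 1 peak over KMT2A. TGFB2, ITGA5 and TGIF1 each have a gap common to M1 to M4. Other gaps differ: at TGIF1 M1 lacks the left gap of M2 to M4, and at ITGA5 the gap of M4 is longer.

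At the other end, 24 domains had a peak of at least 3000 bp in all 4 3MB-PP1 lists, 19 in 3, 23 in 2, 27 in 1 and 21 in none. KMT2A, a histone H3K4 methyltransferase (chr11:118434624-118438633), had the highest ratio, with 3523, 3317, 3497 and 3032 bp in DMSO and 3572, 3154, 3756 and 3410 bp in 3MB-PP1. TENM4, a teneurin of the cell surface (chr11:79437256-79441080), had 3764, 3406, 3595 and 3558 bp and then 3680, 3642, 3606 and 3571 bp, although none of these 4 peaks reached a -log10 q of 5. PDLIM7, a PDZ and LIM domain protein of the actin cytoskeleton (chr5:177494379-177497933), had 3555, 3161, 3264 and 3260 bp and then 3527, 3183, 3397 and 3289 bp. The groups overlapped at each of the 3. The interferon regulatory factor gene IRF2 (chr4:184472284-184475573), with ratio 1.00, had 3172, 3150, 3188 and 3118 bp and then 3245, 3148, 3172 and 3124 bp. The domain over LOC107987020 (chr9:62798915-62802948) had a ratio of 1.01, with 3386, 3985, 3654 and 3876 bp in DMSO and 3262, 4007, 3954 and 3819 bp in 3MB-PP1.

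Most domains that had no peak of 3000 bp in a 3MB-PP1 list were broken there. In the DMSO lists 1, 0, 2 and 2 of the 114 domains consisted of 2 or more peaks, and in the 3MB-PP1 lists 49, 47, 39 and 42 did. The longest piece was under 3000 bp at 44, 44, 34 and 40 of these, while 11, 22, 11 and 24 domains were a single peak shorter than 3000 bp. Over 4 3MB-PP1 lists, 11 domains were broken in all 4, 66 in 1 to 3, and 37 in none. From the first to the last called base, the 3MB-PP1 peaks of a domain spanned a median of 0.955 of the mean DMSO span. They covered a median of 0.900 of the mean DMSO covered length, against 0.824 for the longest peak alone. The span holds the covered bases, and these hold the longest peak. Where a domain was 1 peak in every DMSO list the order of these ratios is therefore fixed, and nothing is read from it.

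Breaks in several lists often had bases in common. Of the 11 domains broken in all 4 3MB-PP1 lists, 8 had a stretch without a peak that was common to the 4 lists, of 244 to 500 bp. Of 23 domains broken in 3 lists, 15 had a stretch common to those 3, and of 21 broken in 2 lists, 17 had one. A shared stretch of any length counted, and how often gaps of this length would share bases by chance was not computed. In the 42 domains with exactly 1 protein-coding start, the 3MB-PP1 lists had 65 gaps in 25 domains. Of these, 5 lay over the start itself, 23 had their middle upstream of it and 42 downstream, and the median distance of the middle from the start was 1179.5 bp. The domains themselves reach farther downstream, with DMSO peaks over 87.6% of the 2000 bp downstream of the start and 57.6% of the 2000 bp upstream, and the number of gaps to be had from that shape was not computed.

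The start itself mostly stayed within a peak. Of these 42 starts, 40, 40, 41 and 40 were covered by a peak in the DMSO lists, and 41, 38, 42 and 38 in the 3MB-PP1 lists. The peak around the start reached a median of 1153.5, 1046, 1023 and 1022.5 bp upstream in DMSO and 869, 795, 888 and 826 bp in 3MB-PP1. Downstream it reached 2415.5, 2308, 2440 and 2238 bp in DMSO and 1929, 1949, 2135.5 and 1913.5 bp in 3MB-PP1. Over the 2000 bp upstream of the start, peaks covered 56.1% to 58.6% of the bases in the DMSO lists and 46.5% to 51.5% in the 3MB-PP1 lists, and over the 2000 bp downstream 86.9% to 87.9% and 81.5% to 85.6%. The DMSO values are those that chose the domains, so these ranges are set side by side without a test.

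A part of the breaks depends on how far apart 2 peaks of a list must be to be listed separately. The smallest gap between neighbouring peaks was 542, 503, 506 and 458 bp in the DMSO lists and 368, 407, 363 and 440 bp in the 3MB-PP1 lists, in each list 4.01 to 4.04 times its smallest peak width. A gap shorter than 458 bp could therefore not appear in any DMSO list. Of the 217 gaps within domains in the 3MB-PP1 lists, with a median length of 492 bp, 144 (66.4%) were no longer than 542 bp. When peaks of each list were joined across gaps of up to 542 bp, 16, 22, 5 and 25 of the 114 domains remained broken in the 3MB-PP1 lists, and 87, 71, 96 and 60 held 3000 bp or more.

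After this joining, the median ratio of widths was 0.927 for the domains and 0.858 for all regions with a peak in all 8 lists. The 3MB-PP1 lists were all narrower at 23 domains (20.2%, against 11.7% of the regions called in all 4 DMSO lists after joining), and each of the 23 was among the 40 found in the deposited peaks. The domains were chosen on DMSO width and no share by width was computed after joining, so nothing is read from this difference. ITGA5 kept its ratio of 0.427, being broken in 4 of 4 lists by gaps longer than 542 bp. KIF26B went from 0.354 to 0.586, TGFB2 from 0.372 to 0.763, and ARID5B from 0.432 to 0.863. At SIX5 (chr19:45767186-45771671), a homeobox gene, the ratio went from 0.588 to 1.00, so no difference in mean width was left at this domain. Joined domains of 3000 bp or more in all 4 3MB-PP1 lists numbered 36, and 6 had none.

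**Figure D3:**
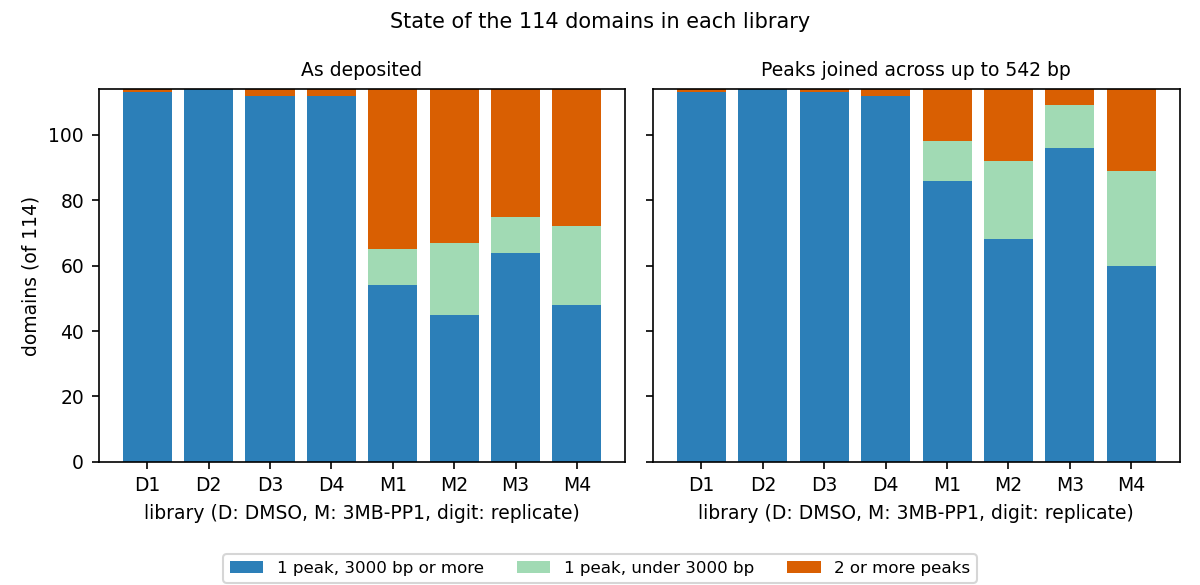
Number of the 114 domains that were 1 peak of at least 3000 bp (blue), 1 shorter peak (green) or 2 or more peaks (orange) in each library, as deposited (left) and after peaks of a list were joined across up to 542 bp (right). Broken domains number 39 to 49 in the 3MB-PP1 lists as deposited and 5 to 25 after joining, against 0 to 2 in the DMSO lists on both sides.

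Selection was checked with lists that took no part in choosing the regions. When regions were chosen on 3 DMSO lists, the held-out DMSO list had a peak of at least 3000 bp at 88.4% of 129 regions (replicate 1), 88.4% of 129 (replicate 2), 95.0% of 120 (replicate 3) and 53.8% of 212 (replicate 4). The 3MB-PP1 lists had one at 37.2% to 58.9%, 39.5% to 56.6%, 40.8% to 57.5% and 27.8% to 42.0% of the same regions. Each held-out DMSO list was above all 4 3MB-PP1 lists, and the mean difference was 37.7 ± 12.3 percentage points (SD over 4 held-out lists, range 19.6 to 47.1). The smallest difference came with DMSO replicate 4, which had the fewest broad peaks of its group. Without it the rule would have kept 212 regions in place of 114, with 121 narrower in all 3MB-PP1 lists in place of 40 and a median ratio of 0.729 in place of 0.824. Being narrower than 3 DMSO lists is an easier condition than being narrower than 4. The share over all regions was not computed at this setting, so nothing is read from the rise to 121.

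The mirrored choice, on widths in the 3MB-PP1 lists, kept 28 regions. Of these, 24 were also among the 114 (21.1% of the domains and 85.7% of the mirrored regions). Their median ratio was 0.992, and 3MB-PP1 was narrower in all lists at 1 of 28 (3.57%) and wider in all lists at 0. With 1 3MB-PP1 list held out, that list had a broad peak at 80.0%, 70.0%, 90.3% and 71.8% of the chosen regions and the DMSO lists at 76.9% to 100.0%, and the held-out share minus the mean DMSO share averaged -14.6 points. The DMSO lists, which took no part in this choice, were thus mostly above the held-out 3MB-PP1 list. Regions chosen on the mean width over all 8 lists, without regard to treatment, numbered 120. Among them the median ratio was 0.900, and 19 (15.8%) were narrower in all 3MB-PP1 lists and 0 wider, close to the 14.1% over all regions called in DMSO.

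**Figure D4:**
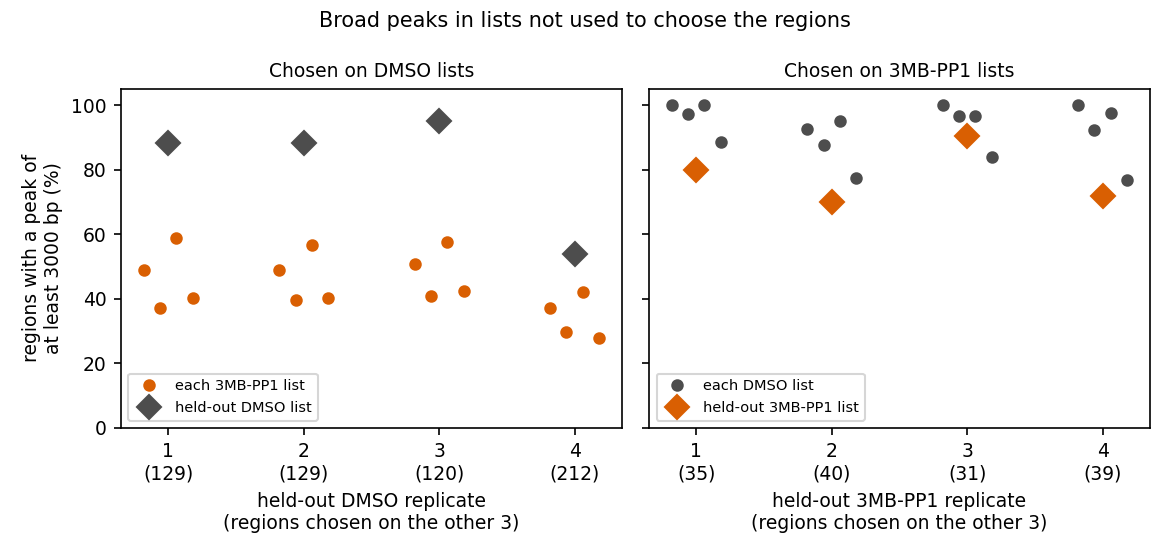
Percent of regions with a peak of at least 3000 bp in lists not used to choose them, by held-out replicate with the number of regions in parentheses, for regions chosen on 3 DMSO lists (left) and on 3 3MB-PP1 lists (right). Held-out DMSO lists (diamonds, left) lie at 53.8% to 95.0%, above every 3MB-PP1 list, and held-out 3MB-PP1 lists (diamonds, right) lie at 70.0% to 90.3%, below most DMSO lists.

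After peaks had been joined at 542 bp and regions chosen anew, the held-out DMSO lists had broad peaks at 87.4%, 87.4%, 95.2% and 62.1% of the regions. DMSO replicate 4 then lay within the range of the 3MB-PP1 lists, which was 33.9% to 67.9% for its regions. The other 3 held-out lists remained above every 3MB-PP1 list.

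A comparison that involves no choice of regions is the number of broad peaks per list. The DMSO lists had 516, 369, 557 and 191 peaks of at least 3000 bp, and the 3MB-PP1 lists had 133, 94, 156 and 78. The means were 408 ± 166 and 115 ± 35.7 (SD, n = 4), 3.54-fold higher in DMSO, and the groups did not overlap. The exact two-sided permutation test over 70 assignments gave p = 0.0286, the smallest that this design allows, and 0.0286 after Benjamini-Hochberg adjustment over 3 measures. The other 2 measures were the percent of all peaks, 0.240 ± 0.106 against 0.0544 ± 0.00943, and the length covered, 1.40 ± 0.573 Mb against 0.387 ± 0.125 Mb, with the same p. Without any one of the 4 3MB-PP1 libraries the exact permutation p was 0.0571 for each measure, and without any one of the DMSO libraries it remained 0.0286. The broad peaks were thus fewer also relative to the 3MB-PP1 lists' own lengths, which ranged from 169667 to 250548 peaks against 149172 to 197782 in DMSO. Peaks were narrower over the whole lists, with a median width of 355 to 409 bp in DMSO and 269 to 324 bp in 3MB-PP1. The mean number of peaks of at least 500, 1000 and 2000 bp in 3MB-PP1 was 0.780, 0.619 and 0.417 of that in DMSO. At 3000 bp it was 0.282, so the lower number was not particular to broad peaks.

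This difference was smaller on the common joining distance. The counts were then 516, 404, 613 and 253 in DMSO and 267, 159, 318 and 124 in 3MB-PP1, with means of 446.5 ± 155 and 217 ± 90.8, a 2.06-fold difference. The groups overlapped through DMSO replicate 4, and the exact permutation p was 0.0857, so the call did not hold. Between lists of the same replicate number, 3MB-PP1 was still the lower in 4 of 4, but the labels do not say that these are pairs. Read depth is unknown for these lists, and its part in peak width, in the smallest gap and in these counts was not tested.

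**Figure D5:**
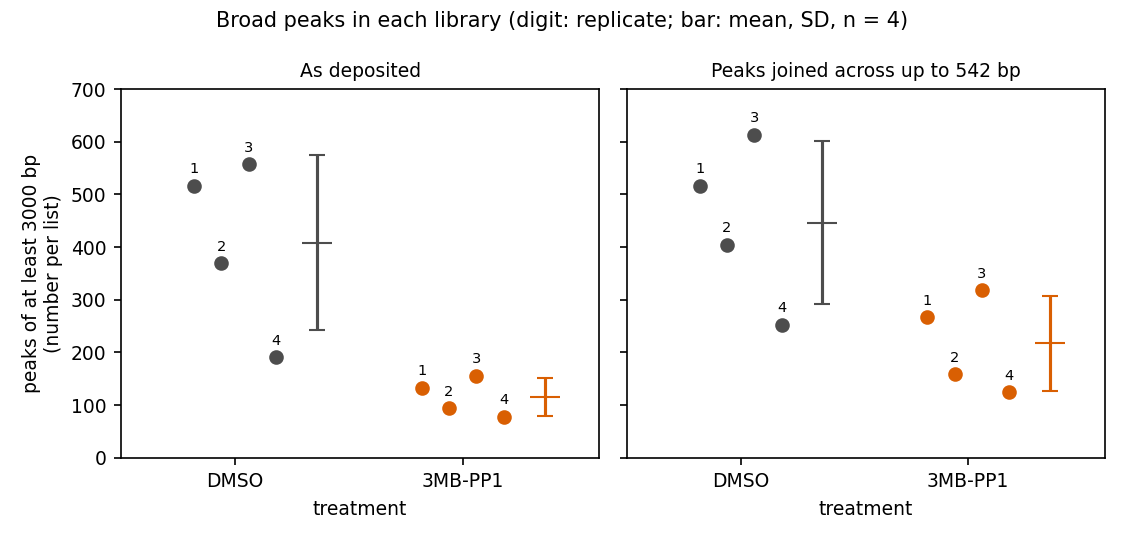
Number of peaks of at least 3000 bp in each of the 8 libraries (points, with the replicate as a digit) and group mean with SD (n = 4), as deposited (left) and after joining peaks across up to 542 bp (right). As deposited the DMSO libraries lie at 191 to 557 and the 3MB-PP1 libraries at 78 to 156, and after joining the ranges overlap (253 to 613 and 124 to 318).

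The threshold of 3000 bp separates regions that differ by a few bases. Just inside, by their smallest DMSO width, were SHF with 3002 bp, IQCJ-SCHIP1 with 3007 bp and RAB26 with 3014 bp, with ratios of 0.718, 0.957 and 0.903. Just outside were ACVR2B with 2999 bp, AXL with 2998 bp and ESPNP with 2989 bp, with ratios of 0.857, 0.617 and 0.532. IQCJ-SCHIP1 counts among the 40 domains narrower in every 3MB-PP1 list although its widths, 3023, 3070, 3007 and 3064 bp against 2959, 2934, 2977 and 2774 bp, differed little.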

How the data were processed

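ATAC-seq peak lists of 8 libraries, 4 DMSO and 4 3MB-PP1, were used on chromosomes 1 to 22, with groups and replicate numbers taken from the sample titles. Each library has a peak list of its own, so no list was called on pooled reads of several libraries. MACS2 and the genome build hg38 are named in the submitters' processing notes, without version, role or parameters. The aligner, read filters, any shift for the Tn5 insertion site and the mode of peak calling are not given in the sources used here. The deposited lists have no header. From the values, each line gives the start counted from 1, end, width in bp, pileup, -log10 p, fold and -log10 q. The deposited pileup is a signal of coverage with no stated scaling. The authors' -log10 p and -log10 q values are each peak's own against background, and the largest q was 0.1. The deposited fold column is a ratio, each peak's pileup over its expected background. Pileup was not compared between libraries. Read depth is unknown, so no counting interval was computed, and 4 libraries per group limit the precision.

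Width was the longest peak of a list within a merged region. A domain counts as narrower in all lists where its widest 3MB-PP1 value lies below its narrowest DMSO value. Counts, percent and length of peaks of at least 3000 bp were compared by exact two-sided permutation of group means. Genes, starts and promoter sequences came from RefSeq tables of GRCh38.p14, and a domain's genes are those whose body it overlaps. Named domains were the 10 widest by smallest DMSO width, the 5 lowest and 5 highest ratios, the 3 nearest on each side of the threshold, and up to 4 per gene list. Promoters on chromosome 8 were not printed. The domains, gene lists and tests were chosen with earlier results of these data known. No pair of lists shared more than 0.0336% of peak positions, so all 8 were kept as separate libraries. Alternatives were width thresholds of 2000 and 4000 bp, a minimum -log10 q of 5, joining or merging within 500 bp, lists of equal length, widths scaled by list, leaving out each library and the replicate block. The common joining distance of 542 bp, the odd and even replicates apart and the choice on the mean of all 8 lists were added after the data had been seen. Python 3.11.15, numpy 2.4.6, pandas 2.3.3 and matplotlib 3.10.9 were used. Merging was checked against bedtools 2.31.1 with 0 differences, and the measures were tested on simulated data.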

Additional observations from a re-analysis of the deposited data

Results flagged for a closer look

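Among 60 groups of 4 values examined (each measure or named domain in each treatment), 6 had 1 library that lay far from the other 3. Chance alone gives such a gap in about 1 in 20 groups. In 5 of the 6 it concerns the width of a single domain. When DMSO replicate 4 was held out, it had a broad peak at 53.8% of the regions chosen on the other 3 DMSO lists, whereas each of the others reached 88.4% to 95.0%. DMSO replicate 4 also had the fewest broad peaks of its group.

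At TGIF1, 3MB-PP1 replicate 1 had a longest peak of 2846 bp, while the other 3 inhibited libraries had 1677 to 1867 bp. At HIPK2, DMSO replicate 1 had 4503 bp against 4156 to 4206 bp. At PTMA, DMSO replicate 3 had 3958 bp against 4039 to 4050 bp, a difference of small size. At TGFB2, DMSO replicate 1 had 3049 bp against 3828 to 3971 bp, and the mean width in 3MB-PP1 was 0.351 of that in DMSO without this library, compared with 0.372 with it. At ARHGAP23, 3MB-PP1 replicate 3 kept 1 peak of 3677 bp where the others had longest peaks of 678 to 979 bp.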

How the results depend on the processing

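The direction of each main result was the same under all alternatives run. With the replicate number as a block, the difference in broad peaks per list was -293 (percent -0.186, length -1.01 Mb), but sign flips within 4 pairs cannot give an exact p below 0.125. The labels do not say whether the numbers pair the samples. The deviations of same-numbered lists correlated at 0.0135 to 0.113, with 2 of 4 pairs over 0.1. Of the 8 libraries, 6 correlated best with their own number. In both groups broad peaks were most numerous in replicate 3, followed by replicates 1, 2 and 4, as deposited and after joining at 542 bp. A shared origin of same-numbered samples was not tested. Joining peaks within 500 bp gave -227 peaks, -0.154 percent and -0.782 Mb, and the common distance of 542 bp gave -229.5, -0.157 and -0.792, each with exact permutation p = 0.0857. Odd replicates alone gave -392 and even ones -194, where 2 against 2 cannot go below an exact p of 0.333. Leaving out 1 library gave -365 to -243 peaks, -0.234 to -0.151 percent and -1.26 to -0.841 Mb, with exact permutation p of 0.0286 to 0.0571.

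The domains depended most on the width threshold. At 2000 bp there were 1452, of which 604 kept that width in all 4 3MB-PP1 lists and 368 were narrower in all, with a median ratio of 0.882 and a held-out difference of 25.1 points. At 4000 bp there were 8, of which 0 kept it and 3 were narrower in all, with a median ratio of 0.719. With -log10 q of at least 5, 13 of 80 domains kept 3000 bp and the ratio was 0.708. Joining within 500 bp gave a ratio of 0.909. Choosing domains anew at 542 bp gave 139, of which 40 kept 3000 bp and 25 were narrower in all, with a ratio of 0.909 and a held-out difference of 23.1 points. When widths were scaled by the 191st widest of each list, 13 of 49 domains were kept and 7 were narrower in all by scaled width. The ratio was then 0.894 and the held-out difference 24.3 points. The choice on the mean of all 8 lists gave 19 narrower and a ratio of 0.900. Leaving out 1 library gave 114 to 212 domains, 24 to 31 kept, 43 to 121 narrower, ratios of 0.729 to 0.848 and held-out differences of 34.2 to 49.2 points, the extreme number of domains without DMSO replicate 4. With 1 library fewer, the condition of being narrower in all lists is easier to meet. Lists of equal length and merging within 500 bp left the results within the limits of no change. For the 20 domains named for their width or ratio, 215 of 238 alternative ratios moved by less than the SD over libraries, and 0 changed direction among those whose groups did not overlap. With -log10 q of at least 5, where a list without a passing peak counts as width 0 in either group, no 3MB-PP1 peak was left at TENM4, HIPK2 and LOXL1 (ratio 0.0), and the ratios were 0.235 at ITGA5, 0.252 at TGFB2, 0.349 at TGIF1, 0.370 at UBTF, 0.460 at PTMA, 0.514 at CIC, 0.520 at PLEC and 0.757 at IRF2. KIF26B and ARHGAP23 had no ratio there, since no peak of either group was left. Among domains whose groups overlapped, leaving out 1 library moved the ratio below 1 at TENM4 (0.996), IRF2 (0.997), PDLIM7 (0.994 and 0.997) and LOC107987020 (0.980 to 0.992). The causes of these shifts were not tested, and unknown read depth limits every width.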

Other observations

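Several domains lie at genes of TGF-beta signalling, a pathway in which secreted ligands act through SMAD transcription factors. These 5 were picked by name after their values had been seen, so they carry no count of significance. TGFB1, a ligand (chr19:41351294-41355177), had 3884, 3384, 3378 and 3433 bp in DMSO replicates 1 to 4 and 3423, 2814, 2873 and 2402 bp in 3MB-PP1 replicates 1 to 4, and the groups overlapped through 3MB-PP1 replicate 1. SMAD3, a signal transducer (chr15:67105254-67108705), had 3386, 3273, 3332 and 3302 bp and then 2515, 2239, 2570 and 2541 bp, with no overlap before or after peaks were joined across 542 bp. LTBP3, which binds latent TGF-beta (chr11:65556719-65561248), had 4370, 4127, 4177 and 3929 bp and then 2993, 2348, 4079 and 2209 bp, with overlap through 3MB-PP1 replicate 3. With TGFB2 and TGIF1, the ratios of the 5 ranged from 0.372 to 0.818, and 3 of the 5 were narrower in all 4 lists, 1 of them also after joining, where all 114 domains gave 35.1% and 20.2%. No list of TGF-beta genes was examined as a whole, so nothing is read from these counts.

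Genes of chromatin regulators at 11 domains, picked in the same way, spread over nearly the whole range of ratios, from 0.432 at ARID5B to 1.04 at KMT2A. SMARCA2, an ATPase of SWI/SNF remodelling complexes (chr9:2014461-2017850), had 3311, 3390, 3293 and 3336 bp in DMSO and 3195, 3032, 3135 and 3121 bp in 3MB-PP1. It was narrower in all 4 lists and still 3000 bp or more in each of them. ARID1B, a SWI/SNF subunit (chr6:156776608-156780729), had 4020, 4114, 4113 and 3874 bp and then 3481, 2663, 2721 and 3413 bp. KDM6B, a histone H3K27 demethylase (chr17:7841454-7845270), had 3714, 3633, 3675 and 3546 bp and then 3645, 3473, 3616 and 3706 bp, and its groups overlapped. A second domain, over DNAH2 and the annotated start of KDM6B (chr17:7833507-7837150) and not counted among the 11, had 3320, 3292, 3172 and 3058 bp and then 2271, 3072, 3293 and 1720 bp. Its groups overlapped too, and its ratio was 0.806, or 0.982 after joining. In all, 6 of the 11 were narrower in all 4 lists (35.1% over all domains) and 3 after joining (20.2% over all domains), and 3 kept 3000 bp in all 4. Nothing is read from these counts.

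Transfer RNA genes, which RNA polymerase III transcribes, lay in 3 domains with 8 such genes between them. The domain over ANG and RNASE4 with 3 tRNA genes (chr14:20681326-20684834) had 3280, 3193, 3247 and 3176 bp in DMSO and 3494, 3018, 3298 and 3139 bp in 3MB-PP1. The domain over TRK-CTT3-1 and TRP-TGG3-3 (chr16:3155920-3159176) had 3179, 3111, 3198 and 3138 bp and then 1942, 3136, 3189 and 3044 bp, so 3MB-PP1 replicate 1 alone was far below the others. The domain over SHF with 3 tRNA genes (chr15:45198349-45201400) had 3052, 3026, 3002 and 3040 bp and then 1360, 3024, 2966 and 1350 bp, a ratio of 0.718, with overlap through 3MB-PP1 replicate 2. None of the 3 was narrower in all 4 lists, where 40 of all 114 domains (35.1%) were. With 3 domains, nothing is read from this count.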
